A study of Cyanidioschyzon merolae strain 10D with 3 samples.

Results

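The most highly expressed nuclear genes of *Cyanidioschyzon merolae* were examined in 3 RNA-seq libraries of strain 10D, a unicellular red alga of hot acidic springs. The genes were chosen by their measured FPKM (fragments counted at a locus, scaled by its length and by the mapped fragments of the library), so their high values are a description and carry no test. A locus was taken when its identifier ends in C, which marks protein-coding loci, when it lies on 1 of the 20 nuclear chromosomes, when it is at least 300 bp long, when the mean FPKM of the 3 libraries is at least 500, and when it lies more than 1000 bp from any locus ending in X, a class taken here as repetitive elements. A further 9 loci were left out by name, of which 4 have a mean of at least 500. In all, 120 genes met the rule, out of 4803 nuclear loci ending in C (2.50%) and 6823 loci in the tables. They are called members in the plots.

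The 3 libraries were polyadenylated RNA of liquid cultures labelled biological replicates 1, 2 and 3. All were of strain 10D, with no allele or treatment named in the labels, grown to late log-phase at 42°C in constant light on a shaker at 150 rpm, so the design holds no comparison of conditions. Library 1 holds 1.30e+07 fragments at the 4955 loci without overlap, as implied by the confidence limits, against 2.88e+06 in library 2 and 2.98e+06 in library 3. The difference of libraries 2 and 3 was smaller than sampling noise, with a noise index of 0.272 over all loci without overlap, where sequencing one RNA independently gives 1. Over the same loci library 1 gave 21.7 against library 2 and 20.8 against library 3. Over the 106 highly expressed genes without overlap library 1 gave 90.6 and 86.2, and the pair 2 and 3 gave 0.335. At a fixed ratio between libraries the index rises with the number of fragments, so it is not the size of a difference. Libraries 2 and 3 were counted as 1 sample because their index was below 1, and each SD has n = 2.

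In most cells a small part of the genes supplies a large part of the messenger RNA. Genes for ribosomal proteins, histones, photosynthesis and core carbon metabolism are commonly among them in algae and plants, and many of these proteins are short. The genome of *C. merolae* is small and compact, with few introns and short spaces between genes, so that the neighbours of a highly expressed gene are close. FPKM is a share of the library, and amounts of RNA per cell were not measured. All 120 genes matched a protein-coding locus tag in the RefSeq table of assembly ASM9120v1, but that table gives no product names, so the genes are given by identifier and most have no stated role. The gene ontology lists of the study, which were used here in shortened form, place CMM158C and CMH047C under response to stress and CML047C under response to stimulus. They place CMT388C under nucleic acid metabolism and hydrolase activity, and CMJ096C under catalytic activity. The study ran its gene ontology analysis on genes covered by the histone mark H3K27me3, so these lists need not hold every annotated gene. CMS262C, which the study took as the gene of a protein of the large ribosomal subunit and used as a housekeeping gene, had 466, 704 and 695 FPKM in libraries 1, 2 and 3.

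The mean FPKM of the 120 genes ranged from 500.5 to 5719, with a median of 764 and quartiles of 610.3 and 1247. A total of 82 genes lay below 1000 FPKM, 21 reached 2000 and 9 reached 3000, so the set has a long upper tail. Library 1 had a median of 704 FPKM over the genes, library 2 one of 820.5 and library 3 one of 812, which gives 760.2 ± 79.2 (SD, n = 2). Over the other 4683 nuclear loci ending in C the median was 57.5 ± 1.97 (SD, n = 2). At the highly expressed genes without overlap the upper confidence limit lay above the FPKM by at most 5.62% (library 1), 11.5% (library 2) and 10.9% (library 3). The lowest of them still had 303 implied fragments in library 2. These limits cover counting error only, not differences between cultures.

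CMR315C had the highest mean of the 3 libraries, with 3570 FPKM in library 1, 6793 in library 2 and 6792 in library 3. It lies on chromosome 18 from 761598 to 761963 by the annotation of the authors (*C. merolae* Genome Project v3), as do all positions given here. Its first place rests on libraries 2 and 3, since CMT172C and CMI049C were higher in library 1. The first place also holds for FPKM only, since per bp CMR315C had fewer implied fragments than both in every library. In library 2 it had 5428 on 366 bp, against 32738 on 1203 bp at CMT172C and 22320 on 1221 bp at CMI049C. CMT172C, on chromosome 20 from 440641 to 441843, had 4488 FPKM in library 1, with 5984 and 5911 in the other libraries. CMI049C, on chromosome 9 from 143824 to 145044, had 3964, 4359 and 4302 FPKM in the same order of libraries. These first 3 genes held 10.6% ± 0.871 (SD, n = 2) of the FPKM summed over the 120 genes. With libraries 2 and 3 as 1 sample, CMR315C averaged 5182 ± 2278, CMT172C 5218 ± 1031 and CMI049C 4147 ± 259 FPKM (SD, n = 2). CMR315C and CMT172C change places between the means and do not differ beyond their spread, while CMT172C was higher than CMI049C in every library.

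Below them the spread between libraries depended on the gene. CMT183C on chromosome 20, from 472109 to 472429, had 1736 FPKM in library 1, against 4503 in library 2 and 4471 in library 3. CMS429C on chromosome 19, from 1067275 to 1068513, had 2972, 3385 and 3358 FPKM in libraries 1, 2 and 3. CMT183C is 321 bp long and was far lower in library 1, while CMS429C is 1239 bp long and varied little. CMI233C on chromosome 9, from 630482 to 631576, had 2938, 3346 and 3340 FPKM in libraries 1, 2 and 3. CMI290C on the same chromosome, from 762886 to 763872, had 2895, 3275 and 3313 FPKM. These 2 genes and CMS429C averaged between 3095 ± 282 and 3172 ± 282 FPKM (SD, n = 2). That SD is the lower level of library 1, which these genes share, and does not measure the differences between them. In every library CMS429C was the highest and CMI290C the lowest of them, by small margins.

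CMK296C on chromosome 11, from 805448 to 805849, had 2158 FPKM in library 1, 3615 in library 2 and 3491 in library 3. CMH239C on chromosome 8, from 615083 to 615706, had 3022, 3054 and 3062 FPKM in libraries 1, 2 and 3. CMH239C was among the most even genes of the set, with an SD of 0.841% of its mean. CMK262C, the tenth gene, lies on chromosome 11 from 717004 to 717471 and had 2266, 3001 and 2998 FPKM in libraries 1, 2 and 3. None of the 10 highest genes overlaps another annotated locus. Together they held 24.8% of the FPKM of the set in library 1, 27.1% in library 2 and 26.9% in library 3. Libraries 2 and 3 shared 9 of their 10 highest genes of the set, libraries 1 and 2 shared 7, and libraries 1 and 3 shared 8.

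**Figure D1:**
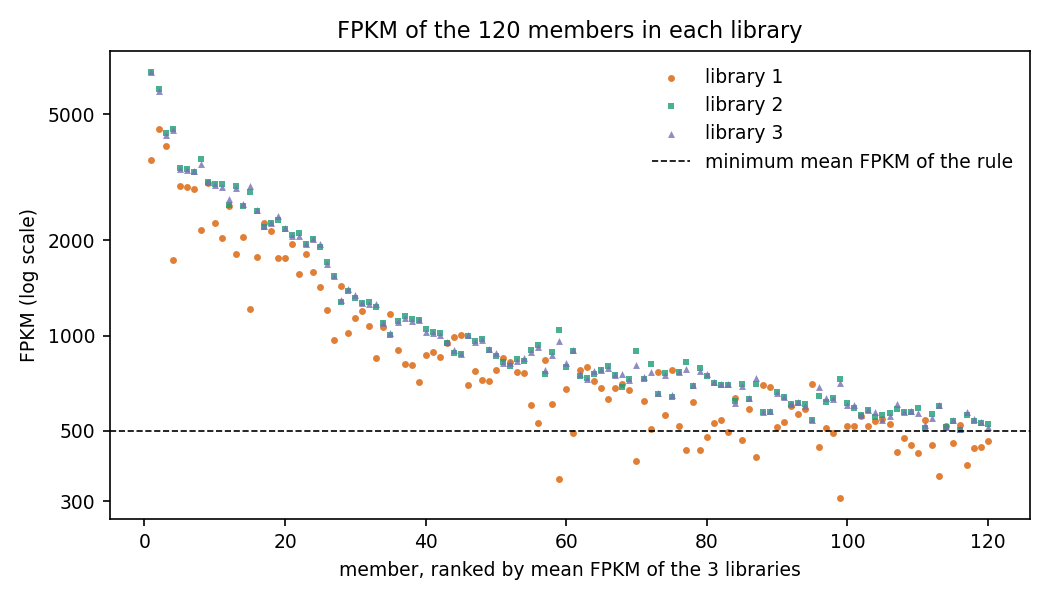
FPKM (log scale) of the 120 highly expressed genes, ranked by the mean of the 3 libraries, with 1 point per library and a dashed line at the minimum mean of 500. Libraries 2 and 3 coincide at nearly all ranks and all their points lie above the line, while 23 genes lie below it in library 1.

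All 120 genes reached 500 FPKM in library 2 and in library 3, and 97 did so in library 1. The 23 genes below 500 FPKM in library 1 were all above it in the other libraries, and the lowest of them was CMT402C with 308 FPKM. Library 1 alone thus placed genes of the set below the threshold. CMJ042C was the last gene inside, with 463, 525 and 514 FPKM in libraries 1, 2 and 3 and a mean of 500.5. It shares 1208 bp with the locus CMJ041T, so its value is uncertain. CMQ213C was the first outside, with 437, 531 and 531 FPKM and a mean of 499.5. No gap separates these 2 genes. The next inside were CMS328C with 445, 531 and 534 FPKM and CMS308C with 439.9, 537 and 546. The next outside were CMQ323C with 365, 554 and 577 FPKM and CMS188C with 408, 543 and 536. On both sides of the threshold libraries 2 and 3 were above 500 FPKM and library 1 below it. The mean of the rule counts libraries 2 and 3 separately, and its part in this was not tested. With libraries 2 and 3 averaged first, 114 genes were found. The rule applied to one library at a time found 99 genes in library 1, of which 97 are in the set, 133 in library 2 and 134 in library 3, both with all 120.

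The rank order of the 120 genes is given as a description, because they were selected on these same values. Spearman's rho of library 1 was 0.818 with library 2 and 0.831 with library 3, while libraries 2 and 3 had 0.997. The largest ratio of library 2 to library 3, or its inverse, was 1.11 at CMQ051C. The SD was at most 10% of the mean at 45 genes and over 30% at 18, with a median of 13.2% (n = 2).

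The 120 genes make up 2.50% of the nuclear loci ending in C and 1.44% of their summed length. Of the summed FPKM of these loci they held 22.3% (library 1), 22.4% (library 2) and 22.3% (library 3), which gives 22.3% ± 0.0496 (SD, n = 2). Over nuclear loci ending in C of at least 300 bp, the pool of the rule, the share was 23.3% in library 1 and 25.7% in both other libraries, or 24.5% ± 1.67 (SD, n = 2). The share was thus nearly equal between libraries only with the shorter loci in the sum. As a share of FPKM multiplied by length it was 16.2%, 17.5% and 17.5%. As a share of the implied fragments at nuclear loci ending in C without overlap it was 15.2%, 16.4% and 16.4%. The 60 genes of lower rank held 26.4% ± 0.994 (SD, n = 2) of the FPKM of the set. Loci with a mean of at least 500 FPKM that the rule left out held further FPKM of nuclear loci ending in C. The 25 loci shorter than 300 bp, the highest with a mean of 9200 FPKM, held 3.74%, 11.2% and 11.4% in libraries 1, 2 and 3. The 17 loci near repetitive elements held 3.20%, 3.11% and 3.12%. The loci left out by name, of which 4 have a mean of at least 500 FPKM, together held 4.13%, 4.10% and 4.12%.

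The highly expressed genes were short. Their median length was 799.5 bp, with quartiles of 484.5 and 1204.5 bp, against 1297.5 bp with quartiles of 861 and 1961.25 bp over the 4590 other nuclear loci ending in C of at least 300 bp. A total of 97 of the 120 genes (80.8%) were shorter than that median of the other loci. The lengths are spans of the annotated loci. They can be taken as coding lengths at most loci, since 99.6% of the nuclear loci ending in C and 118 of the 120 genes have a length that is a multiple of 3. FPKM is itself divided by length, so length and level are not independent measures, and no test was run. Short genes also had more FPKM for the same number of implied fragments per bp. In library 2, CMT183C had 4503 FPKM from 2615 fragments on 321 bp, and CMT172C had 5984 FPKM from 32738 fragments on 1203 bp. Short loci thus reach 500 FPKM with fewer fragments per bp, and the part of this in the lengths was not tested.

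The difference lay at both ends of the length range. Of the highly expressed genes, 47 (39.2%) were between 300 and 600 bp, against 10.6% of the other loci. Only 4 genes (3.33%) reached 2000 bp, against 24.0% of the other loci. Between 600 and 1000 bp the shares were nearly equal, with 22.5% of the genes and 22.7% of the other loci. Put the other way, 8.79% of all nuclear loci ending in C of 300 to 600 bp were in the set, but 0.362% of those of 2000 bp or more. The median length also fell in steps below the edge of the set. It was 1644 bp at other loci of 1 to 20 FPKM, 1290 bp at 50 to 100 FPKM, 1075.5 bp at 100 to 200 FPKM and 864 bp at 200 to 500 FPKM.

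**Figure D2:**
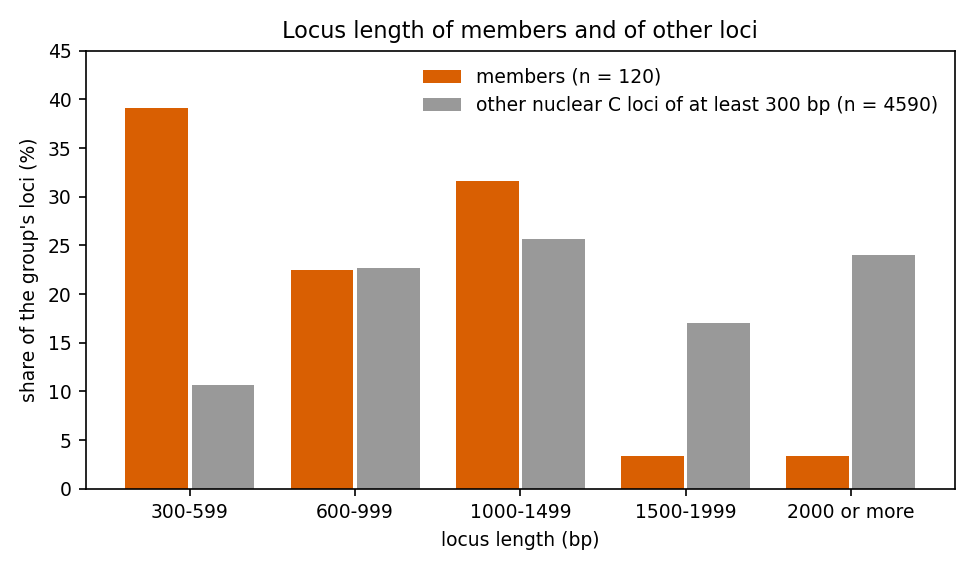
Share of loci (%) in 5 classes of locus length (bp), for the 120 highly expressed genes (left bars) and for 4590 other nuclear loci ending in C of at least 300 bp (right bars). The genes fill the class under 600 bp with 39.2% against 10.6%, and the class of 2000 bp or more with 3.33% against 24.0%.

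CMR282C was the longest gene of the set, 3204 bp on chromosome 18 from 678351 to 681554, and had 769, 840.4 and 833 FPKM in libraries 1, 2 and 3. CMM224C, 2424 bp on chromosome 13 from 554669 to 557092, had 541, 511 and 523 FPKM. CMQ224C, 2118 bp on chromosome 17 from 566131 to 568248, had 452, 575 and 578 FPKM. The means of these 3 long genes, between 525 and 814 FPKM, lay far below those of the first 10. At the other end, CMC044C on chromosome 3, from 107066 to 107377, and CMQ051C on chromosome 17, from 116030 to 116341, are both 312 bp long. CMC044C had 445, 643 and 689 FPKM in libraries 1, 2 and 3. CMQ051C had 402, 897 and 805.5 FPKM, and CMJ096C, 315 bp on chromosome 10 from 287733 to 288047, had 608, 890 and 871 FPKM. Spearman's rho of length and mean FPKM was -0.28 over the 120 genes and also -0.28 over all nuclear loci ending in C of at least 300 bp. The 60 genes of higher rank had a median length of 585 bp and the 60 of lower rank one of 1017 bp, while the first 10 genes had one of 805.5 bp.

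Library 1 was lower than libraries 2 and 3 at most of these genes, and most of all at those under 600 bp. Differences are given as log2(FPKM + 1) of library 1 minus that of the mean of libraries 2 and 3. The median over the 120 genes was -0.26, with 101 genes lower and 19 higher in library 1. Over the 4683 other nuclear loci ending in C the median was -0.05, with 2612 lower and 1954 higher in library 1. By the same measure 18 of the 120 genes (15%) were lower in library 1 by more than 1.5 times, where 5.73% of the 4710 nuclear loci ending in C of at least 300 bp were. None was higher by more than 1.5 times, where 2.19% of these loci were. The rule used the mean of these libraries, so the counts are a description.

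Length moved with this difference. All 47 genes under 600 bp were lower in library 1, with a median of -0.52. Other loci of that length had a median of -0.42, and how many of them were lower was not counted. Between 1000 and 1500 bp the median was -0.11 over 38 genes, 25 of them lower in library 1, and -0.02 over other loci. Among loci of 1000 to 1500 bp without overlap, the median was -0.11 at 31 highly expressed genes, -0.01 at 77 loci of 200 to 500 FPKM, -0.10 at 156 loci of 100 to 200 FPKM and 0.07 at 332 loci of 10 to 50 FPKM. The 25 loci of high FPKM shorter than 300 bp, which the rule left out, had a median of -1.42. With 1 library against 2 that count as 1 sample, this difference could not be tested between cultures.

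CMT321C differed most, with 353 FPKM in library 1, 1044 in library 2 and 961 in library 3, a log2 difference of -1.50. It is 339 bp long and lies on chromosome 20 from 812943 to 813281. CMT183C, given above, followed with -1.37, and CMT251C, 348 bp on chromosome 20 from 628379 to 628726, with -1.26 from 1215, 2830 and 2974 FPKM in libraries 1, 2 and 3. All 3 lie on chromosome 20 and belong to the shortest length class, and the values of CMT251C are uncertain because it overlaps another locus. The opposite end was held by longer genes. CME023C, 1791 bp on chromosome 5 from 66846 to 68636, had 704 FPKM in library 1, 540 in library 2 and 542 in library 3, a log2 difference of 0.38. CMF117C, 1332 bp on chromosome 6, had 698, 574 and 574 FPKM in libraries 1, 2 and 3 (0.28), and CMG123C, 1335 bp on chromosome 7, had 777, 638 and 647 FPKM (0.27). Short length did not go with a large difference at every gene, since CMC045C, 384 bp, had 944, 947 and 954 FPKM.

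**Figure D3:**
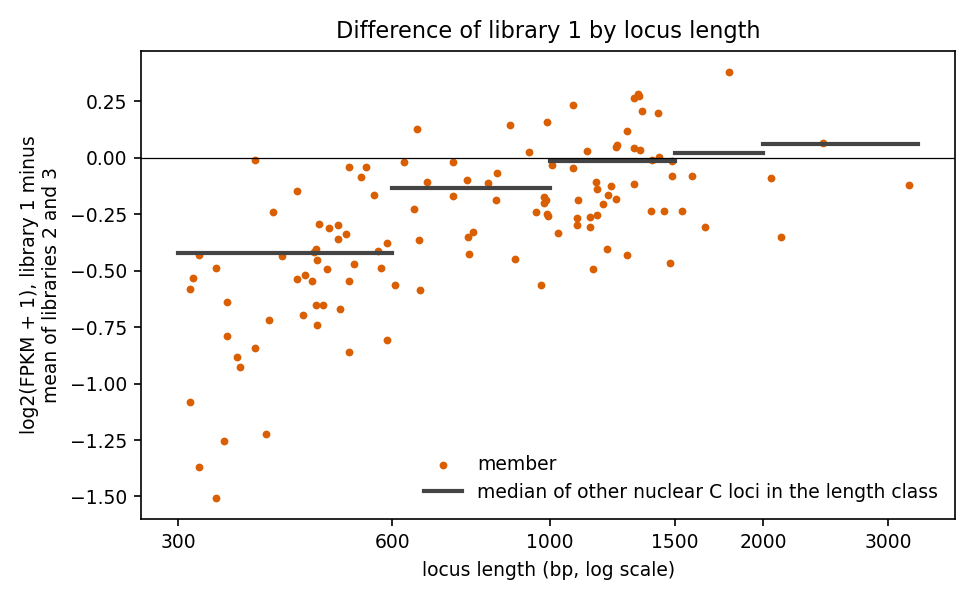
Difference of log2(FPKM + 1), library 1 minus the mean of libraries 2 and 3, by locus length (bp, log scale), with 1 point per highly expressed gene and a bar at the median of the other nuclear loci ending in C of each length class. The genes under 600 bp all lie below 0, down to -1.50, and the longer genes lie on both sides of 0.

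The highly expressed genes were spread over 19 of the 20 nuclear chromosomes, and chromosome 1, with 102 loci ending in C, held none. The 5 chromosomes with most of them, 9, 17, 18, 19 and 20, held 62 genes (51.7%) on 38% of the loci. Chromosome 9 had the highest share of its loci in the set, with 13 genes among 235 loci (5.53%). Chromosome 17 held 13 among 357 loci (3.64%) and chromosome 20 held 14 among 486 (2.88%). On the other chromosomes the share was between 0% and 3.05%. By the rule in library 1, 2 or 3 alone, chromosome 9 held 11, 14 or 15 genes, chromosome 17 held 7, 16 or 17, chromosome 19 held 5, 12 or 12 and chromosome 20 held 9, 18 or 17. In library 1 alone chromosome 15, with 8 genes, was thus ahead of chromosomes 17 and 19, so which 5 chromosomes hold most genes depends on the library. The 13 genes of chromosome 9 carried 15.6% ± 0.507 (SD, n = 2) of the FPKM of the set on 4.89% of the loci. The typical gene of chromosome 9 was not high, with a median mean FPKM of 64.3 over its loci, against 74.0 on chromosome 20 and 38.2 on chromosome 1. The counts are given as a description, without a test over chromosomes.

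On chromosome 9 lie 3 of the first 10 genes (CMI049C, CMI233C and CMI290C) and CMI248C, the eleventh, with 2037, 3012 and 2936 FPKM in libraries 1, 2 and 3. Chromosome 17 has as many genes of the set but none of this level. Its highest is CMQ390C with a mean of 1204 FPKM, and its 13 genes carried 6.48% ± 0.266 (SD, n = 2) of the FPKM of the set. On chromosome 20 the FPKM share of 14.3% ± 3.03 (SD, n = 2) had the largest SD of all chromosomes, and CMT183C and CMT251C, short genes that were lower in library 1, lie there.

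**Figure D4:**
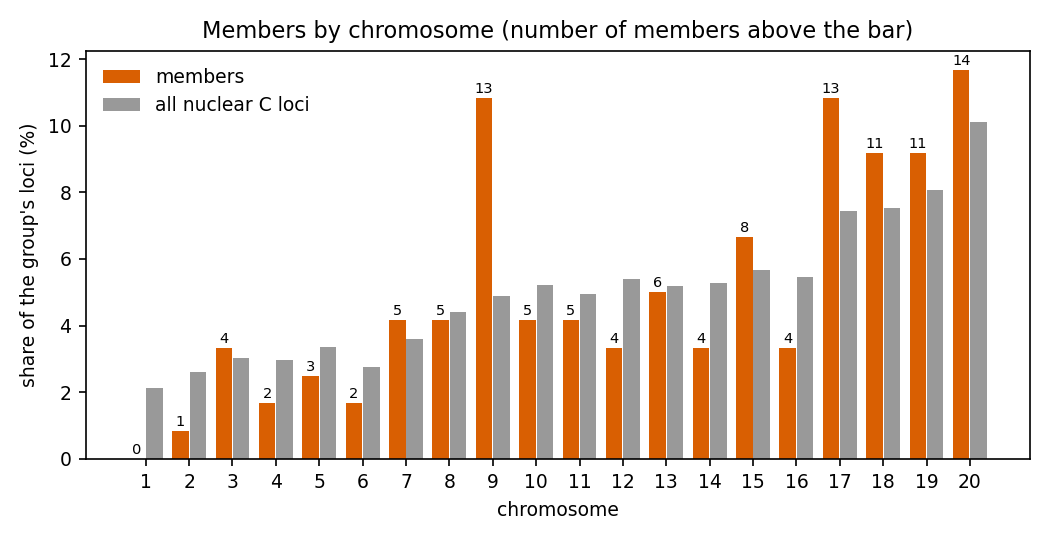
Share (%) of the 120 highly expressed genes (left bars, number of genes above) and of all 4803 nuclear loci ending in C (right bars) on each of the 20 chromosomes. Chromosome 9 holds 10.8% of the genes on 4.89% of the loci, and chromosome 1 holds none.

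None of the genes lies within 20 kb of a chromosome end (position 1 or the last annotated base), where 3.91% of the other nuclear loci ending in C lie. The closest is CMN332C at 22.6 kb. The rule leaves out loci near those ending in X, and its part in this position was not tested. The median distance from an end was 248 kb for the genes and 213 kb for the other loci.

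Successive genes of the set on one chromosome were separated by a median of 21 other loci ending in C and 66.8 kb. In 5 pairs no other locus ending in C lay between them, and 110 of the 120 genes had no neighbour from the set, which itself is 2.50% of these loci. The first pair is CMI049C with CMI050C, 2030 bp apart on chromosome 9. CMI050C, from 147075 to 148562, had 2143, 2271 and 2265 FPKM in libraries 1, 2 and 3, and its partner was 1.89 times as high by the means. CMT182C and CMT183C lie 904 bp apart on chromosome 20, and CMT182C, from 470755 to 471204, had 1812, 2957 and 2927 FPKM. Both of this pair were lower in library 1, and CMT183C was 1.39 times as high by the means.

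CML162C and CML163C are 228 bp apart on chromosome 12, the closest pair. CML162C, from 408695 to 409339, had 1133, 1313 and 1340 FPKM in libraries 1, 2 and 3, and CML163C, from 409568 to 410407, had 685, 778 and 781 FPKM. CMR148C, with 697, 998 and 1001 FPKM, and CMR150C, with 812, 1149 and 1138 FPKM, lie 2198 bp apart on chromosome 18 and were the most alike. CMC044C and CMC045C, 330 bp apart on chromosome 3, differed by 1.60 times, and by more in library 1, where CMC044C had 445 and CMC045C had 944 FPKM. The densest 100 kb held 5 genes of the set among 32 loci ending in C, on chromosome 19 from 775172 to 840011. These are CMS301C, CMS306C, CMS308C, CMS311C and CMS328C, with means between 503 and 2154 FPKM and at least 1 other locus ending in C between each of them.

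The nearest locus ending in C on either side had a median of 64.6 FPKM over 240 neighbours, or 65.5 ± 3.13 (SD, n = 2), against 59.4 FPKM, or 58.9 ± 1.84, over 9326 neighbours of the other loci. A level of at least 500 FPKM was found in 11 of the 240 neighbours (4.58%) and in 3.43% of the neighbours of other loci. Of these 11 neighbours, 10 are the genes of the pairs, and without them the median over the other 230 neighbours was 62.5 FPKM, or 62.3 ± 1.42 (SD, n = 2). Of the 120 genes, 114 were higher than both neighbours, and 42 were at least 10 times as high as the higher of them. The genes were chosen at 500 FPKM or more, a level that few loci reach. These counts, and the ratios to the higher neighbour, are therefore largely set by the rule and are a description. CMI290C had the largest such ratio, 65.4, between neighbours of 48.3 and 33.5 FPKM. It was followed by CMI233C with 49.8, CMH239C with 49.7, CMK296C with 45.3 and CMG162C with 43.6. At the other extreme, the 5 genes with the highest neighbour were CMI050C, CMT182C, CMT183C, CMI049C and CML163C, all of them in pairs. CMN332C was below a neighbour that is not in the set, CMN330C, with a mean of 1193 FPKM. The lowest neighbours were those of CMQ051C, listed at 0, of CMO139C, at most 29.5 FPKM, and of CMJ121C, at most 33.2 FPKM.

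The level of a neighbour varied with its distance. Neighbours less than 500 bp away had a median of 109 FPKM (42 loci, quartiles 63.3 and 189), or 105 ± 15.9 (SD, n = 2). Those at 500 to 1000 bp had 64.4 FPKM and those at 1000 bp or more had 59.3 FPKM. Around the other loci the same medians were 67.2, 59.6 and 58.0 FPKM. The medians of both groups thus lay furthest apart at the closest neighbours, and no test was run. Of these, 4 of 42 (9.52%) are genes of at least 500 FPKM, against 60 of 1596 (3.76%) around the other loci. The 4 are CML162C, CML163C, CMC044C and CMC045C, which are in pairs, and the median without them was not computed. From the second to the tenth locus on either side the medians ranged from 53.5 to 75.6 FPKM around the genes, and from 59.3 to 59.8 FPKM around other loci. The spaces themselves were alike, with a median of 1429.5 bp to a neighbour for the genes and 1503 bp for the other loci.

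**Figure D5:**
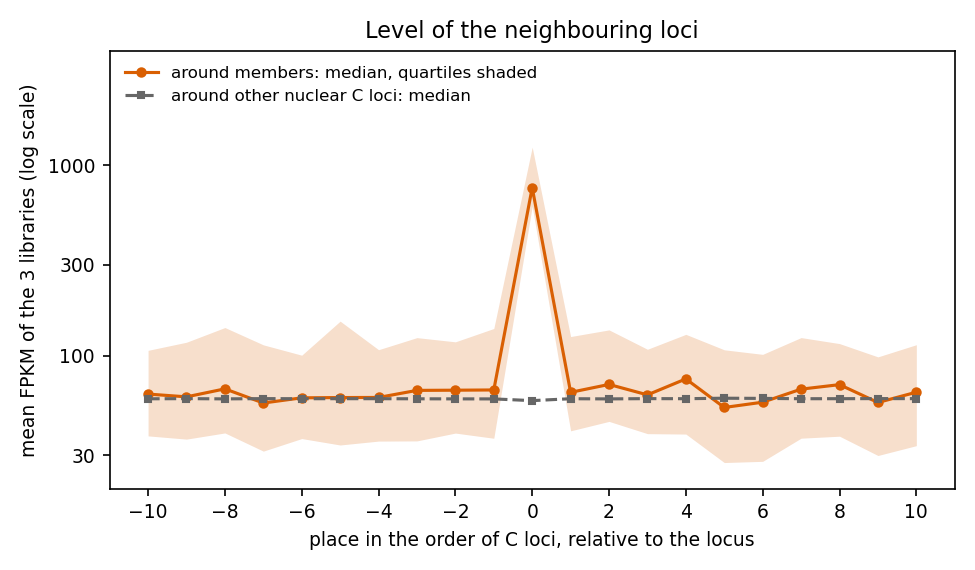
Median of the mean FPKM of the 3 libraries (log scale) at the 10 loci ending in C on either side of a highly expressed gene (points and line, quartiles shaded) and of another nuclear locus ending in C (dashed line). The high level at place 0 is set by the choice of the genes, and the adjoining places lie at 66.1 and 64.3 FPKM, close to the dashed line at about 59.3 to 59.5 FPKM.

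At 16 of the 120 genes (13.3%) a neighbour was below 10 FPKM, against 12.6% of the other loci. CMI049C, the third gene of the set, adjoins CMI048C with a mean of 2.39 FPKM. CMG206C, at 815 FPKM, adjoins CMG208C at 0.0709 FPKM, which lies 6779 bp away. CMQ051C lies between 2 loci listed at 0 in all 3 libraries. A total of 8 neighbours were listed at 0. All of these except CMN166C overlap another locus, so a listed 0 was not read as absent expression.

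Overlap with another locus was found at 14 of the 120 genes (11.7%) and at 17.1% of the other nuclear loci ending in C. Among the 14 overlapping loci, 7 end in T (miscellaneous RNA in RefSeq), 6 end in Z and 1 ends in C. Of the overlapping loci, 2 (CMR281T and CMM046Z) were listed at 0 in all 3 libraries. The highest mean among them was 503 FPKM at CMR243T, which shares 907 bp with CMR244C at 979 FPKM. CMT251C, at 2340 FPKM, lies wholly inside CMT250T, at 245 FPKM. CMO366Z, 327 bp inside CMO169C, was listed at 559 FPKM in library 2 and at 0 in libraries 1 and 3. At these 14 genes, which include CMJ042C, CMR282C and CMQ051C, the split of reads between overlapping loci is not known, and their values are uncertain.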

How the data were processed

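RNA-seq of 3 libraries of one condition was used. The authors ran FastQC and the Tuxedo tools on paired-end reads in Galaxy. The deposited values are FPKM per locus with confidence limits from Cufflinks, 1 table per library. Program versions are not given in the sources used here, nor is the treatment of reads that map to several loci. Length was taken from the locus column, and coordinates were written from 1. Implied fragments are (FPKM / SD) squared, taking the upper limit as 2 SD above the FPKM, at the 4955 loci without overlap only. Below 50 fragments these numbers were within 0.05 of a whole number at 66.4% to 73.2% of loci, so no count test was run. The noise index is the mean chi-square over loci with more than 20 fragments in each library. The functions were tested on simulated data.

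The genes, lists and comparisons were chosen with earlier results of these data known. Named are the 10 genes of highest mean, 3 on either side of the threshold, the 3 longest and shortest, the 3 with the largest difference of library 1 in each direction, those in pairs, and those with the 5 highest and 3 lowest neighbours. Genes named for an ontology entry or a role given by the study, an overlap, a ratio to a neighbour, a neighbour below 10 FPKM or a place in the densest 100 kb, and CMI248C, CMQ390C, CMN332C and CMT402C, were singled out after their values were seen. Functional classes and promoter motifs had been foreseen and were not run, since product names and sequences were not used here. No test was run, since the values chose the genes. Alternatives changed thresholds, denominators, overlap, pseudocount (1 or 0.1), scaling and libraries. Calculations used scipy 1.17.1, pandas 2.3.3 and numpy 2.4.6 in Python 3.11.15, and plots matplotlib 3.10.9.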

Additional observations from a re-analysis of the deposited data

How the results depend on the processing

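Of 40 alternatives, 24 left the value within the spread between libraries, or a count within 1.5 times. For the difference of library 1 that spread was the SD of its values against library 2 and against library 3, 0.0043. As these libraries count as 1 sample, it is not a spread between cultures, and whether that result moved cannot be judged by it. The number of genes moved to 38 with a minimum of 1000 FPKM and to 73 with a minimum length of 600 bp. The share of summed FPKM was 18.6% over all loci, 24.5% over loci of at least 300 bp, 16.8% as FPKM times length, 22.9% at loci without overlap and, chosen after seeing the data, 20.6% for genes found in library 1 alone. The median length was 648 bp with no minimum length, 1140 bp with a minimum of 600 bp and, chosen after seeing the data, 879 bp for genes found in library 1 alone. The log2 difference of library 1 was -0.28 without overlapping loci, -0.19 after scaling to a common median, and -0.26 without either library 2 or library 3. The median of the neighbours was 68.5 FPKM with neighbours of at least 1 FPKM only, and between 63.5 and 67.8 FPKM on leaving out each library in turn. The number of pairs was 9 when 1 other locus could lie between. The promoter window was not run, as sequences were not used here. No paired analysis was possible because there was one condition. Libraries 2 and 3 count as 1 sample, so SD rest on 2 values, and reads shared between similar genes were not tested. Without one library the rule found between 113 and 133 genes.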
